A study of Mus musculus with 34 samples.

Results

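The genes described here are 3 members of the BET family (bromodomain and extra-terminal domain), Brd2, Brd3 and Brdt, out of 58071 gene symbols in the tables of the series. They were taken by symbol, and all 3 were found in the tables of every stage. The set was also chosen by measured values, those of Brd2 in late 2-cell embryos, which were much lower in embryos carrying the R442Q mutant, so the genotype contrast at that stage is given for all 3 genes as a description without a test. For the same reason the changes of Brd2 between zygote and late 2-cell embryos carry no test.

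Each library was made from 1 mouse embryo, and the study asked how the transcriptome of preimplantation embryos responds when the DNA damage checkpoint is disturbed. CHK1 is a kinase of that checkpoint, encoded by Chek1, and holds back entry into mitosis. Every embryo had received CHK1 mRNA by injection as a zygote, either wild type (WT) or the R442Q mutant, so the WT embryos also carried extra CHK1 mRNA, and embryos without injection were not analysed here. There were 11 zygotes (5 WT, 6 R442Q), 9 late 2-cell embryos (4 WT, 5 R442Q) and 14 blastocysts (7 of each). Zygotes and late 2-cell embryos had no drug, whereas both blastocyst groups were grown in KSOM medium with a CHK1 inhibitor at 30 nM. The zona pellucida was removed, cDNA was made by SMART-seq2, and Tn5 was used to build Nextera libraries. The strain, the animals behind each embryo and any batch are not given in the labels, so the p-values below measure only the spread between these embryos.

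BET proteins read acetylated histones through a pair of bromodomains and bring elongation factors to chromatin, among them the positive transcription elongation factor P-TEFb (CDK9 with a cyclin T). BRD2 and BRD3 are found in most tissues, whereas BRDT is best known from spermatogenesis, where it is needed for chromatin remodelling in male germ cells. In the mouse embryo the zygote runs largely on transcripts stored in the oocyte, and the main wave of embryonic transcription comes at the late 2-cell stage.

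The annotation (GENCODE M21, genome build GRCm38) placed Brd2 (ENSMUSG00000024335.20) on the minus strand at chr17:34112023-34122634, with 19 transcripts. Brd3 (ENSMUSG00000026918.16) lies on the minus strand at chr2:27445579-27507662, with 10 transcripts. Brdt (ENSMUSG00000029279.15) lies on the plus strand at chr5:107331159-107387058, with 4 transcripts. None of the 50-base stretches of their transcripts was shared with another annotated gene, at 0 of 8362 for Brd2, 0 of 7527 for Brd3 and 0 of 5181 for Brdt. Brd2 overlaps H2-DMa and CR974462.3 on the opposite strand, and no source states that strand was used in counting, so reads from the overlap cannot be told apart. H2-DMa reached at most 7.55 FPKM in blastocysts and was not analysed here in earlier embryos. Gm8152, a pseudogene overlapping Brdt on the opposite strand, had at most 7 counts in any zygote or late 2-cell embryo.

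The 250 bases before a RefSeq start of each gene are shown because Brd2 and Brdt differed in opposite directions between the late 2-cell groups described further on. They come from RefSeq (GRCm38.p6), are written 5′ to 3′ on the strand of the gene, and carry capitals where a searched motif occurs. Each motif was sought on both strands. The motifs were TATAAA for the TATA box, the letters CCAAT for the box of that name, the E-box CACGTG, and CGCATGCG, the core of the motif bound by NRF1. The start of Brd2 shown is the most upstream of 3, at chr17:34122608-34122857, that of Brd3 is at chr2:27475399-27475648, inside the GENCODE span of the gene and not at its outermost start, and that of Brdt at chr5:107330944-107331193.
Brd2: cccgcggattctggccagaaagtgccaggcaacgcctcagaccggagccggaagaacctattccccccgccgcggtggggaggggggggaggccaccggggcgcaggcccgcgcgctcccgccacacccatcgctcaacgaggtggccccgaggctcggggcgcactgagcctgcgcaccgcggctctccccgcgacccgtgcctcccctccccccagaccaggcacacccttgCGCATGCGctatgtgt
Brd3: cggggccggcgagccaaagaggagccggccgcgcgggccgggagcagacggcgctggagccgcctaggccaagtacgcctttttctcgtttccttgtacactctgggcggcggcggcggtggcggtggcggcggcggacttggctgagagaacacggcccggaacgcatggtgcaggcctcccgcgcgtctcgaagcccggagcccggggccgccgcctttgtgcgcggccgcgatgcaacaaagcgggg
Brdt: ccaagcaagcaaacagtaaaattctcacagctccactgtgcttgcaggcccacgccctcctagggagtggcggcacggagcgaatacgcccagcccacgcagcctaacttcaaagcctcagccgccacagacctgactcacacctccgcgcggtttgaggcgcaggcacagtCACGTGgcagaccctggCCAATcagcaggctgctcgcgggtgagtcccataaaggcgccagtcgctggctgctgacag
The Brd2 window held CGCATGCG, which occurs in 1.55% of the 32851 RefSeq promoter windows of the same length, and 27 CpG dinucleotides against a median of 6 over all windows. The Brd3 window held 37 CpG and none of the 4 motifs. The Brdt window held 16 CpG with 1 CACGTG, found in 6.02% of windows, and 1 CCAAT, found in 33.85%. TATAAA was in none of the 3 windows and in 12.4% of all. The other Brd2 windows, at chr17:34119901-34120150 and chr17:34121748-34121997, held 18 and 12 CpG and none of the motifs. These matches describe letters only and say nothing about which factor was bound in these embryos.

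Zygotes had 7183632 to 11296522 estimated counts in total and late 2-cell embryos 5727956 to 8916343, whereas blastocysts had FPKM only, so their depth is unknown. The marker sums set blastocysts apart from the earlier stages. The summed FPKM of 6 trophectoderm markers (Cdx2, Krt8 and others) was 1246 to 24283 in blastocysts and at most 74.7 before, and that of 7 oocyte markers (Zp1 to Zp3, Gdf9 and others) was at most 6.45 in blastocysts and at least 1244 before. Zygotes and late 2-cell embryos overlapped in their marker sums: the 2-cell sum of WT late 2-cell replicate 2 (137 FPKM) lay within the zygote range (88.2 to 245), and the oocyte sum of R442Q late 2-cell replicate 3 (6951) was above every zygote (at most 6403). Some single markers lay apart between these stages. Bmp15 was at least 931 FPKM in zygotes and at most 184 in late 2-cell embryos, and Zfp352 at most 15.2 and at least 19.65. Others overlapped, among them Oosp1, which reached 6564 FPKM in R442Q late 2-cell embryos. Chek1 stood at 4123 to 9079 FPKM in WT and 5290 to 6868 FPKM in R442Q zygotes, which does not tell the injected forms apart. It was far lower later, at 344 to 653 FPKM in WT and 253 to 905 in R442Q late 2-cell embryos. In blastocysts it was 7.05 to 38.25 FPKM in WT and 13.31 to 23.59 in R442Q. Male germ cell markers, relevant to Brdt, summed to 6.09 to 19.2 FPKM over 7 genes in zygotes, with Tnp2 at 0 in all 11. Cumulus cell markers summed to 18.4 to 20.9 FPKM over 8 genes in WT zygotes and 11.7 to 16.7 FPKM in R442Q zygotes, with Amh at 0 in all. Cyp19a1 alone made up most of these sums, at 16.69 to 19.28 FPKM in WT and 9.35 to 15.3 in R442Q zygotes. Every other cumulus marker was at most 1.9 FPKM in zygotes.

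Across the stages, Brdt made up most of the BET transcripts of the zygote and was nearly absent from the blastocyst. FPKM (fragments per kilobase of transcript, scaled to the library) corrects for length, so it allows a comparison between genes. That comparison rests on the length assigned to each gene, described further on. Brdt stood at 385 ± 48.5 FPKM in WT zygotes (SD, n = 5), against 27.8 ± 3.27 for Brd2 and 26.5 ± 5.39 for Brd3. Of the FPKM summed over the 3 genes, Brdt took 87.5% ± 1.78 in WT zygotes, 56.1% ± 4.25 in WT late 2-cell embryos (n = 4) and 0.917% ± 1.48 in WT blastocysts (n = 7). Brd2 took 6.43%, 34.9% and 58.8% in the same groups, and Brd3 took 6.04%, 9.04% and 40.3%. In R442Q embryos the share of Brdt was 88.3% ± 2.05 in zygotes (n = 6) and 91.5% ± 7.02 in late 2-cell embryos (n = 5). All 5 R442Q late 2-cell shares, 79.3% to 96.4%, were above all 4 WT shares, 50.9% to 61.3%. The sum below each share holds the Brd2 values that chose the genes, so nothing is read from this gap. In bulk RNA from an embryo, fewer cells of a type and less RNA per cell cannot be told apart, and stage cannot be told apart from table, since each stage was deposited as tables of its own.

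**Figure D1:**
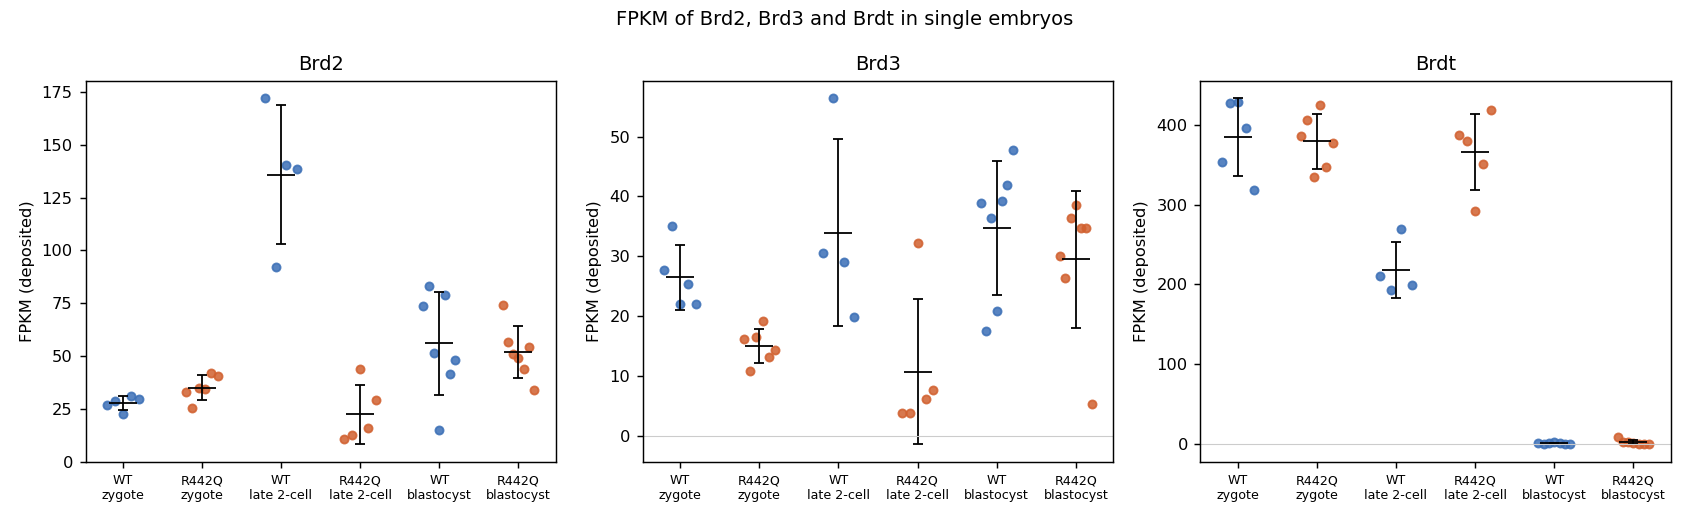
Deposited FPKM of Brd2, Brd3 and Brdt (a panel each, own linear axis) in each embryo, by group. Points are single embryos, horizontal lines the group mean and bars ± 1 SD. Brd2 is highest in WT late 2-cell embryos (91.99 to 172 FPKM), and Brdt is at most 7.85 FPKM in blastocysts.

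Brd2, a reader of acetylated histone H4, was lower in R442Q than in WT embryos at the late 2-cell stage, and this is the value that chose it. Its FPKM was 172, 91.99, 140.63 and 138.49 in the WT embryos and 10.72, 12.71, 43.89, 15.95 and 29.21 in the R442Q embryos. Every R442Q embryo was below every WT embryo. On the count scale the same embryos gave 421, 229, 291 and 323 CPM (counts scaled to the embryo's total, with no correction for length) in WT and 23.1, 40.7, 66.8, 33.2 and 44.2 CPM in R442Q. The raw counts behind these were 1575 to 2601 in WT and 134 to 405 in R442Q embryos. The WT mean was 7.59 times the R442Q mean in CPM and 6.04 times in FPKM. The fitted log2 difference (edgeR on counts with libraries scaled by TMM, the trimmed mean of M values) was -2.85 ± 0.32 (SE), the 97th lowest of the 13883 genes tested.

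At this stage edgeR called 4.18% of genes at the threshold used throughout, a Benjamini-Hochberg adjusted p of 0.05, with 1.22% higher and 2.95% lower in R442Q. Groups that did not overlap in CPM were seen in 12.4% of genes, 8.77% with R442Q lower and 3.67% with R442Q higher. Nothing is read from the members against these shares, since the contrast entered the choice of the genes.

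Brd3, which also reads acetylated histones and acetylated GATA1, was lower on average but with wide scatter. The WT late 2-cell embryos stood at 86.2, 173, 69.8 and 60.4 CPM and the R442Q embryos at 12.9, 20.3, 72.4, 20.3 and 39.4 CPM. R442Q replicate 3 lay inside the WT range, and the other 4 R442Q embryos were below all WT embryos. The log2 difference was -1.52 ± 0.47, and it ran from -1.95 to -1.08 as each embryo was left out in turn.

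Brdt went the other way. It stood at 286, 278, 359 and 268 CPM in WT and at 476, 501, 376, 473 and 562 CPM in R442Q late 2-cell embryos, so every R442Q embryo was above every WT embryo in CPM. The R442Q mean was 1.60 times the WT mean in CPM and 1.68 times in FPKM. Rescaling each FPKM column to the same total (TPM) gave 1.38 times, with 3 of 5 R442Q embryos above all WT. The FPKM columns themselves summed to 712234 to 742246 in WT and to 814376 to 976830 in R442Q late 2-cell embryos. The fitted log2 difference was 0.79 ± 0.27.

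**Figure D2:**
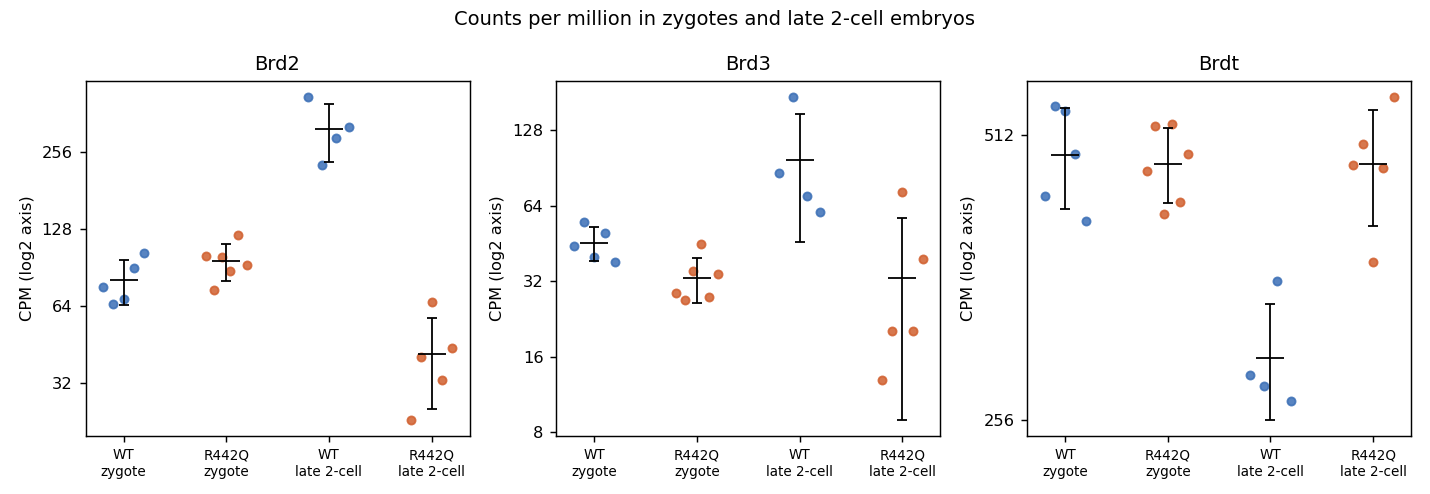
CPM (log2 axis) of Brd2, Brd3 and Brdt in zygotes and late 2-cell embryos, by genotype. Points are single embryos, lines the mean and bars ± 1 SD. In late 2-cell embryos the R442Q points lie below the WT points for Brd2 (23.1 to 66.8 against 229 to 421) and above them for Brdt (376 to 562 against 268 to 359), and Brd3 overlaps through 1 embryo.

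Transcript GC content moved with the genotype difference at this stage. The median log2 difference over all tested genes ran from 0.47 in the lowest decile of GC content to -0.40 in the highest, whereas in zygotes it stayed between -0.013 and 0.040. Brd2 had a GC content of 57.7% (longest coding transcript), above 90.2% of tested genes, Brd3 had 51.3%, above 60.8%, and Brdt had 45.0%, above 25.4%. The median log2 difference of the decile that holds each gene was -0.40 for Brd2, -0.13 for Brd3 and 0.30 for Brdt. With each library's trend on GC content and length removed, an alternative chosen after the data were seen, the log2 differences were -1.72 ± 0.29 for Brd2, -1.0 ± 0.42 for Brd3 and 1.07 ± 0.32 for Brdt. All 3 kept their sign. The part of the GC trend in these differences was not tested further.

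**Figure D3:**
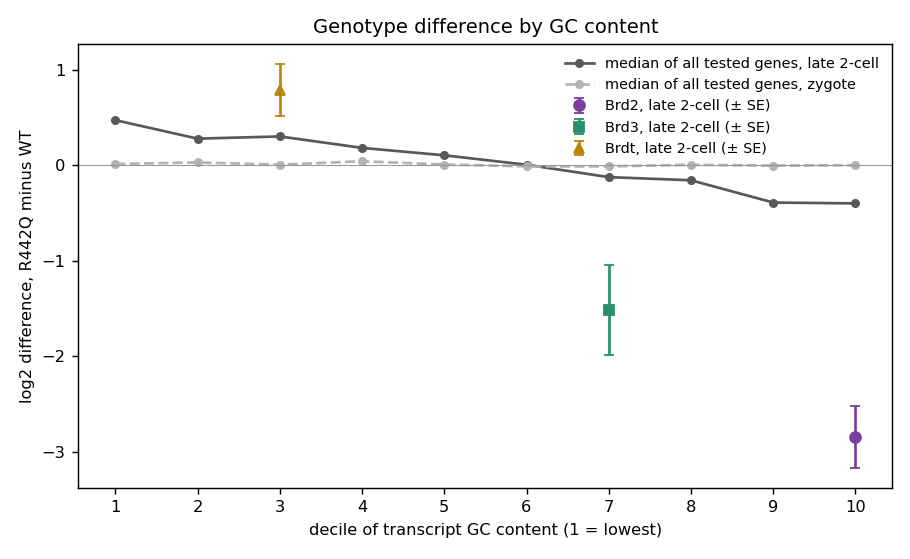
Median log2 difference of R442Q minus WT over all tested genes in each decile of transcript GC content (1 lowest, 10 highest), for late 2-cell embryos (dark line) and zygotes (light dashed line). Symbols with bars (± SE) are the late 2-cell values of Brd2, Brd3 and Brdt at their own decile. The dark line runs from 0.47 to -0.40, and Brd2 (-2.85) and Brd3 (-1.52) lie below it while Brdt (0.79) lies above.

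Stage markers were summed in the same embryos. The summed FPKM of 8 markers of the 2-cell stage (Zscan4c, Zscan4d, Zfp352 and others) was 137, 596, 612 and 1654 in WT and 799, 1160, 2512, 2992 and 3072 in R442Q late 2-cell embryos. That of the 7 oocyte and zygote markers was 1244 to 3180 in WT and 1707 to 6951 in R442Q embryos, and both sums overlapped between genotypes. Of the 7 oocyte and zygote markers, Zp2 (29.38 to 31.36 against 9.37 to 28.29 FPKM) and Nlrp5 (44.7 to 50.54 against 22.16 to 44.45 FPKM) were higher in every R442Q than in every WT embryo, and of the 8 markers of the 2-cell stage 0 were. R442Q replicate 3, the highest of its group in Brd2 and Brd3 and the lowest in Brdt, had the highest oocyte and zygote sum (6951) and 16211 genes at 1 FPKM or more, against 11984 to 13475 in the other 4. Male germ cell markers summed to 17.1 to 45.0 FPKM in WT and 30.0 to 90.1 in R442Q embryos, overlapping too. The part of these markers in the differences was not tested.

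In zygotes, before the late 2-cell stage, the genotype contrast was not the one that chose the genes, and it was tested. None of the 3 passed the threshold, where 13.2% of the 12420 genes tested did, 6.3% higher and 6.92% lower in R442Q. Brd2 was 76.5, 65.4, 68.3, 90.4 and 104 CPM in WT and 101, 74.3, 99.9, 87.8, 121 and 92.9 CPM in R442Q zygotes, and the groups overlapped. Its log2 difference was 0.37 ± 0.16 (edgeR adjusted p = 0.13), a sign opposite to that seen in late 2-cell embryos. The difference between these 2 stages was not tested, since it holds the contrast that chose Brd2. Some stage markers lay apart between the zygote groups. Of the 7 oocyte and zygote markers, 4 were lower in every R442Q than in every WT zygote, among them Zp3 at 21.16 to 49.98 against 74.81 to 122.9 FPKM, and of the 8 markers of the 2-cell stage 4 were higher, among them Zscan4d at 4.47 to 29.87 against 0.88 to 3.57 FPKM. Tcstv1 and Tcstv3, of the same 2-cell list, had lower medians in R442Q, at 91.6 against 134 and 23.1 against 35.9 FPKM, with overlap. Of all genes 6.46% lay without overlap in FPKM with R442Q lower and 2.25% with R442Q higher. The oocyte and zygote sums were 4793 to 6403 in WT and 3338 to 4794 FPKM in R442Q, and the 2-cell sums overlapped too. The part of these markers in the zygote values was not tested.

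Brd3 was 44.3, 55.2, 40.0, 49.9 and 38.2 CPM in WT zygotes and 28.7, 26.8, 35.1, 44.9, 27.6 and 34.3 CPM in R442Q zygotes. Of the 6 R442Q zygotes, 5 were below all 5 WT zygotes. The log2 difference was -0.34 ± 0.16 (edgeR adjusted p = 0.17). In FPKM the groups did not overlap, at 22.09 to 35.15 in WT and 10.81 to 19.16 in R442Q zygotes, and limma on log2(FPKM + 1) called Brd3 lower by a log2 difference of -0.78 (adjusted p = 0.0082). In CPM, groups without overlap were seen in 9.39% of genes, 6.84% with R442Q lower and 2.54% higher. In FPKM limma called 10.4% of 11849 genes lower, the groups did not overlap with R442Q lower in the 6.46% given above, and the median log2 difference of all genes was -0.11. The fits that did and did not call Brd3 in zygotes differed in tool, scaling and filter as well as in unit, and which of these decided the call was not tested.

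Brdt showed no genotype difference past the threshold in zygotes. It ranged from 415 to 549 CPM in WT and from 423 to 526 CPM in R442Q zygotes, with means of 488 ± 59.7 and 478 ± 43.5. Its log2 difference was 0.10 ± 0.10 (edgeR adjusted p = 0.61), and the sign turned to -0.02 in limma on log2(FPKM + 1). TMM factors were 1.02 to 1.10 in WT and 0.91 to 1.0 in R442Q zygotes, which raises every log2 difference from edgeR above the ratio of the raw CPM.

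From zygote to late 2-cell embryo the difference of Brd2 had opposite signs in the 2 genotypes. In WT embryos Brd2 was 3.90 times higher in CPM at the late 2-cell stage, 316 ± 80.1 against 80.9 ± 16.1, with no overlap and a log2 difference of 1.87 ± 0.24. In R442Q embryos it was 2.31 times lower, 41.6 ± 16.2 against 96.2 ± 15.7 CPM, with no overlap and a log2 difference of -1.42 ± 0.22. In FPKM the R442Q stages overlapped, with a ratio of 1.56. With the GC and length trend removed the log2 differences were 0.98 ± 0.22 in WT and -1.21 ± 0.20 in R442Q. In a model of the 4 groups 61.2% of the 16199 genes were called in WT, 36.2% higher and 25% lower, and 65.1% in R442Q, 35.3% higher and 29.8% lower. Stages without overlap in CPM were seen in 56.7% of genes in WT, 32.1% higher and 24.6% lower at the later stage, and in 44.9% in R442Q, 23.4% higher and 21.5% lower, so a stage change was the common case. The median log2 change over all genes was 0.34 in WT and 0.22 in R442Q, and changes are to be read against these.

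Brd3 rose in WT embryos by the count test, from 45.5 ± 7.04 to 97.4 ± 51.7 CPM, a log2 change of 1.03 ± 0.37 (edgeR adjusted p = 0.019). The call rested on WT late 2-cell replicate 2 (173 CPM), without which the change was 0.39 with an adjusted p of 0.345. It was also lost in FPKM, with a log2 change of 0.27 and an adjusted p of 0.57 in limma. In R442Q embryos Brd3 was 32.9 ± 6.83 CPM in zygotes and 33.0 ± 24.1 CPM in late 2-cell embryos, a log2 change of -0.22 ± 0.34 (edgeR adjusted p = 0.57), whereas in FPKM limma gave -0.87 with an adjusted p of 0.040, in a fit that called 34.6% of genes lower (22.5% without overlap).

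Brdt fell in WT embryos, from 488 ± 59.7 to 298 ± 41.7 CPM, with every late 2-cell embryo below every zygote and a log2 change of -0.79 ± 0.18 (edgeR adjusted p = 0.00054). In R442Q embryos it was 478 ± 43.5 CPM in zygotes and 478 ± 67.2 CPM in late 2-cell embryos, a log2 change of -0.18 ± 0.16 (edgeR adjusted p = 0.31). In TPM the R442Q groups did not overlap, at 488 to 621 in zygotes and 359 to 466 in late 2-cell embryos, and limma on log2(TPM + 1) called a fall of -0.44 (adjusted p = 0.0078). That fit called 39.8% of 13282 genes lower, with a median of -0.24 over all genes, and 27.6% did not overlap with the later stage lower, so such a fall was common in TPM. Whether the change differed between genotypes was not tested, since that difference holds the late 2-cell contrast.

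**Figure D4:**
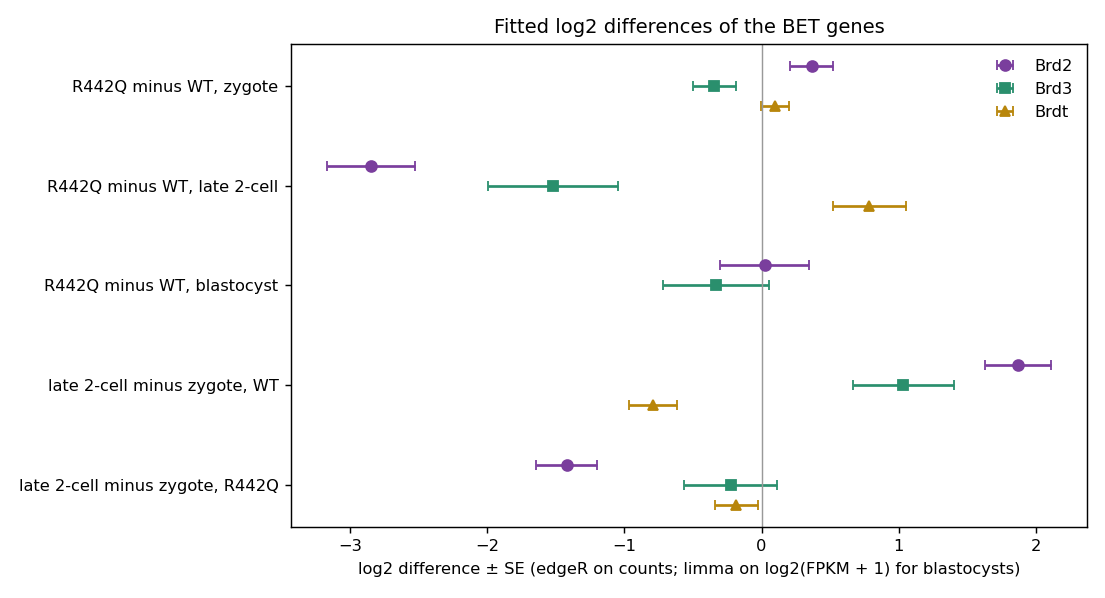
Fitted log2 differences (± SE) of Brd2 (circles), Brd3 (squares) and Brdt (triangles) in the 5 comparisons, from edgeR on counts, or limma on log2(FPKM + 1) for blastocysts, where Brdt is left out. Values left of 0 are lower in R442Q or at the later stage. Brd2 sits at 1.87 for the WT stage change and at -1.42 for the R442Q stage change.

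In blastocysts under the inhibitor neither Brd2 nor Brd3 differed between genotypes past the threshold. Brd2 was 14.99 to 83.16 FPKM in WT, median 51.46, and 34.1 to 74.38 FPKM in R442Q, median 51.08. Its difference on the log2(FPKM + 1) scale was 0.02 ± 0.32 (limma adjusted p = 0.99). Brd3 was 17.64 to 47.79 FPKM in WT, median 38.86, and 5.34 to 38.51 FPKM in R442Q, median 34.73, a difference of -0.33 ± 0.38 (limma adjusted p = 0.90). The lowest Brd3 value was that of R442Q replicate 7, which had 8189 genes at 1 FPKM or more against 10962 to 12182 in the others of its group, and without it the difference was 0.0149. Limma called 1 of 11297 genes in this comparison, 0.00885% (0.00885% higher, 0% lower), and 836 had an unadjusted p under 0.05. Brdt was listed at 0 in 3 of 7 WT and 3 of 7 R442Q blastocysts and otherwise at 0.32 to 1.54 FPKM in WT and 1.12 to 7.85 FPKM in R442Q. It reached 1 FPKM in 6 of 14 blastocysts, under the filter of 7, so the test of the other 2 genes left it out. Without the filter limma gave Brdt a difference of 0.50 ± 0.48 (adjusted p = 0.80).

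By mean FPKM, the Brd2 groups ranked in the order WT late 2-cell (136 ± 33.0), WT blastocyst (56.0 ± 24.3), R442Q blastocyst (51.9 ± 12.4), R442Q zygote (35.1 ± 6.0), WT zygote (27.8 ± 3.27) and R442Q late 2-cell (22.5 ± 14). Only the first step had no overlap between neighbours. In TPM the R442Q zygotes (51.4) stood above the R442Q blastocysts (47.8). The Brdt order was WT zygote, R442Q zygote, R442Q late 2-cell (366 ± 47.6 FPKM), WT late 2-cell (218 ± 35.1) and then both blastocyst groups. The first 3 groups overlapped, and WT late 2-cell embryos lay apart from their neighbours. Brd3 ranged from 34.7 ± 11.2 FPKM in WT blastocysts to 10.8 ± 12.1 in R442Q late 2-cell embryos, and every neighbouring pair in its order overlapped except WT and R442Q zygotes. In TPM the highest Brd3 groups were WT late 2-cell embryos (mean 46.3) and WT zygotes (39.0), above WT blastocysts (33.6).

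CPM divided by FPKM was read as an implied effective length for each gene in each embryo, apart from the scaling of each library. How length was assigned is not given in the sources used here. This use of the tables was added after the data were seen. For genes with 1 annotated transcript the median implied length was 0.921 to 0.973 of the annotated one. For Brdt it was 1268 ± 27.2 nt in WT zygotes and 1216 to 1445 nt over all 20 embryos. Of the 2 coding transcripts annotated for Brdt, that is below the shorter (1607 nt) and far below the longer (4745 nt). For Brd2 it was 2909 ± 440 nt in WT zygotes and 2333 ± 187 nt in WT late 2-cell embryos, against 4657 nt for the longest coding transcript and 2617 nt for a shorter one.

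For Brd3 the implied length differed between groups. It was 1734 ± 164 nt in WT zygotes and 2197 ± 258 nt in R442Q zygotes, a ratio of 1.27 with overlapping groups (exact two-sided permutation test, p = 0.013, adjusted over 5 tests 0.022). It was 2833 ± 308 nt in WT late 2-cell embryos, 1.63 times the WT zygotes without overlap (exact permutation p = 0.0079, the smallest 126 splits allow, adjusted 0.020). Genes with 1 annotated transcript moved too, their median implied length being 141 to 162 nt short of the annotated one in WT zygotes and 64.5 to 99.0 nt in WT late 2-cell embryos. With that shortfall added back in each embryo, Brd3 kept a log2 difference of 0.63 between the WT stages (exact permutation p = 0.0079) and 0.30 between the zygote genotypes (exact permutation p = 0.013). Brdt was 1.08 times longer in WT late 2-cell embryos (exact permutation p = 0.0079, adjusted 0.020), and with the shortfall added back its log2 difference went from 0.11 to 0.035 (exact permutation p = 0.29). Brd2 and Brdt did not pass between the zygote genotypes (exact permutation, adjusted p = 0.63 for both). The Brd3 transcripts annotated as coding run from 437 nt to 5419 nt. Single transcripts were not resolved here. In R442Q late 2-cell embryos the implied lengths were scattered, at 3855 ± 1310 nt for Brd3 (2244 to 5288 nt), 2094 ± 688 nt for Brd2 (1513 to 3200 nt) and 1305 ± 49.2 nt for Brdt, and they are given without a test.

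**Figure D5:**
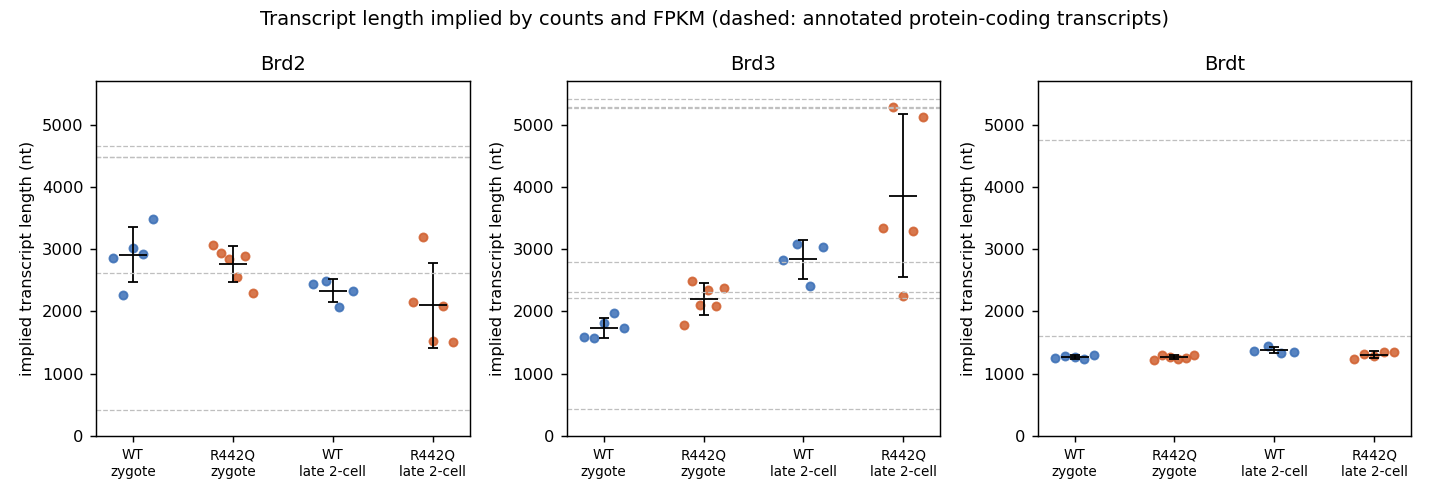
Transcript length (nt) implied by the ratio of CPM to FPKM for Brd2, Brd3 and Brdt in each zygote and late 2-cell embryo. Points are embryos, lines the mean, bars ± 1 SD and dashed lines the lengths of annotated coding transcripts. Brd3 lies at 1570 to 1969 nt in WT zygotes and at 2404 to 3075 nt in WT late 2-cell embryos, against 2244 to 5288 nt in R442Q late 2-cell embryos, and Brdt stays between 1216 and 1445 nt.

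The genes with the closest profile to each member over the 20 zygotes and late 2-cell embryos were ranked by Pearson correlation of log2 CPM among 9682 genes, as a description, since these embryos share stage and genotype. For Brd2 they were Lmf2 (r = 0.95), Pkm (r = 0.91) and Nfe2l1 (r = 0.90). Lmf2 averaged 71.5 CPM in WT and 14.2 CPM in R442Q late 2-cell embryos. For Brd3 they were Kansl3 (r = 0.90), Smc2 (r = 0.86) and Dido1 (r = 0.85), and for Brdt Sap18b (r = 0.92), Mthfsl (r = 0.90) and Fam133b (r = 0.89). Within the 11 zygotes alone Lmf2 gave 0.44 with Brd2 and Sap18b gave 0.16 with Brdt. With Brd3, Kansl3 gave 0.14 there and Smc2 gave 0.72. Between the members the correlations were 0.72 for Brd2 with Brd3, -0.67 for Brd2 with Brdt and -0.62 for Brd3 with Brdt.

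Among 32 other genes with a bromodomain, the late 2-cell genotype contrast called 1 higher and 5 lower in R442Q, with a median log2 difference of -0.59 against 0.07 for all genes, where 1.22% of all genes were called higher and 2.95% lower. Zmynd8, a histone reader of corepressor complexes, rose from 215 ± 76.5 to 630 ± 221 CPM (log2 1.61 ± 0.33, edgeR adjusted p = 0.017). Smarca4, the BRG1 ATPase of the SWI/SNF remodeller, fell from 85 ± 18.0 to 12.6 ± 9.26 CPM (log2 -2.70 ± 0.49, edgeR adjusted p = 0.012). Brd8, a subunit of the TIP60 acetyltransferase complex, fell by 1.61 on the log2 scale (edgeR adjusted p = 0.017).

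Of 23 P-TEFb and pause release genes, 0 were called higher and 2 lower in R442Q late 2-cell embryos, with a median of -0.35. Supt5, a subunit of the elongation factor DSIF, fell by 2.13 on the log2 scale (edgeR adjusted p = 0.017), and Aff1, a scaffold of the super elongation complex, fell by 1.07 (edgeR adjusted p = 0.048). With the GC and length trend removed the log2 difference was -1.57 for Smarca4 (edgeR adjusted p = 0.158), -1.28 for Brd8 (0.0926), -1.09 for Supt5 (0.254) and -0.48 for Aff1 (0.515). That fit called 1 of 32 other bromodomain genes and 1 of 23 P-TEFb and pause release genes, both higher. Of all 13883 genes it called 61 higher and 44 lower, so calls were few throughout. With an embryo left out Aff1 passed in 1 of 9 fits, Zmynd8 in 6, Brd8 in 7, Supt5 in 8 and Smarca4 in all 9. Of 19 histone acetylation writers and erasers edgeR called 0, with 5 at an unadjusted p under 0.05, and DESeq2 called 2, both lower. Of all genes 21% had an unadjusted p under 0.05, and DESeq2 called 6.68% lower. In the model of 4 groups 1 other bromodomain gene was higher and 10 of 32 lower, 1 P-TEFb and pause release gene was higher and 6 of 23 lower, and 3 of 20 acetylation genes were lower. That model called 5.83% of all genes higher and 9.65% lower.

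In zygotes edgeR called 3 of 31 other bromodomain genes higher and 2 lower, 0 of 22 P-TEFb and pause release genes higher and 1 lower, and 0 of 18 acetylation genes higher and 3 lower, against 6.3% higher and 6.92% lower of all genes. Smarca2, the BRM ATPase of SWI/SNF, rose from 223 ± 23.8 to 304 ± 25.6 CPM (edgeR adjusted p = 0.0022), and Trim24, a histone reader and ubiquitin ligase, rose from 244 ± 19.6 to 340 ± 42.7 CPM (edgeR adjusted p = 0.0028). Trim28, the corepressor KAP1, fell by 0.95 on the log2 scale (edgeR adjusted p = 0.043) and Cecr2, a chromatin remodelling factor, by 0.40 (edgeR adjusted p = 0.047). Larp7, a part of the 7SK particle that holds P-TEFb inactive, fell by 0.54 (edgeR adjusted p = 0.021), the deacetylase Sirt7 by 1.02 (edgeR adjusted p = 0.010) and the acetyltransferase Kat7 by 0.47 (edgeR adjusted p = 0.012). None of these 7 genes passed in the model of 4 groups, and with an embryo left out Cecr2 passed in 3 of 11 fits and Trim28 in 5 of 11.

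From zygote to late 2-cell embryo in WT, 16 of 32 other bromodomain genes rose and 6 fell (median 0.60 against 0.34 for all genes), 14 of 23 P-TEFb and pause release genes rose and 4 fell (median 1.40), and 6 of 20 acetylation genes rose and 4 fell (median -0.09). Of all genes 36.2% rose and 25% fell. With the GC and length trend removed the balance of acetylation genes turned to 3 rises and 5 falls. The other bromodomain genes then had 12 and 4, and P-TEFb and pause release genes 11 and 5. Cdk9, the kinase of P-TEFb, rose from 5.72 ± 1.87 to 92.9 ± 7.19 CPM (edgeR adjusted p = 2.2e-09), and Hdac1, a histone deacetylase, from 7.39 ± 1.32 to 201 ± 38.4 CPM (edgeR adjusted p = 4.0e-11). Ell, an elongation factor, fell by 2.12 on the log2 scale (edgeR adjusted p = 1.5e-08). In R442Q embryos 11 of 32 other bromodomain genes rose and 15 fell (median -0.23 against 0.22 for all genes). The balance turned to 12 rises and 9 falls in limma on log2(FPKM + 1) and to 11 and 9 with the GC and length trend removed. It did not turn in DESeq2 (11 and 15) or in limma on log2(TPM + 1) (10 and 13). Of all genes limma called 34.6% lower in FPKM and 39.8% lower in TPM. In the same embryos P-TEFb and pause release genes had 11 rises and 7 falls (median 0.97) and acetylation genes 4 rises and 6 falls, against 35.3% and 29.8% of all genes. The balance of acetylation genes was 6 and 4 in limma on log2(FPKM + 1), 6 and 6 in DESeq2, and 5 and 9 in limma on log2(TPM + 1). In blastocysts limma called 0 of 30, 0 of 19 and 0 of 19 genes of the 3 lists, with 2, 1 and 3 at an unadjusted p under 0.05, and no other tool was run there.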

How the data were processed

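For zygotes and late 2-cell embryos the authors deposited estimated counts per gene symbol, not normalised, of which 90.7% and 89.9% of values were whole numbers. For all 3 stages the authors deposited FPKM. The submitters' processing notes name RSEM and mm10, and the annotation and program versions are not given in the sources used here.

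Estimated counts were rounded and fitted in R 4.3.3 with edgeR 4.0.16 (filterByExpr with a minimum count of 10, TMM, quasi-likelihood test), each stage alone for genotype and in a model of 4 groups for stage. Blastocysts were fitted with limma 3.58.1 and a mean-variance trend, on log2(FPKM + 1) of genes at 1 FPKM or more in at least 7 of 14 embryos. P-values were adjusted by Benjamini-Hochberg over all genes tested, with a threshold of 0.05. CPM printed per embryo is the count over the embryo's total, without TMM. DESeq2 1.42.0, other scalings, units and filters, a replicate block and leaving out each embryo were alternatives, and the fits were tested on simulated data. Precision is limited by counting noise and by the 4 to 7 embryos per group.

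Genes named were the 3 members, the 3 genes closest to each by correlation, and from each related list up to 2 genes past the threshold in each direction by p. The members and lists were chosen with earlier results of these data known. Male germ cell, cumulus, oocyte, 2-cell, trophectoderm and inner cell mass marker lists served as checks. The inner cell mass list (6 genes) summed to 94.3 to 573 FPKM in blastocysts.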

Additional observations from a re-analysis of the deposited data

Results flagged for a closer look

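Brd3 in R442Q blastocyst replicate 7 stood at 5.34 FPKM, apart from the other 6 embryos of its group (26.4 to 38.51 FPKM). Brdt in R442Q blastocyst replicate 1 stood at 7.85 FPKM, apart from the other 6 (0 to 2.3 FPKM). Brd3 in R442Q late 2-cell replicate 3 stood at 32.27 FPKM, apart from the other 4 embryos of its group (3.83 to 7.68 FPKM). Of 42 groups of values checked in this way these 3 stood out. The rule compared the gap to the next value with the range, and its limits were set to flag about 1 in 20 by chance. That rate was not checked in these data. The log2 difference of Brd2 from zygote to late 2-cell embryo had opposite signs, 1.87 in WT and -1.42 in R442Q embryos. The contrast of the 2 was not tested because it contains the contrast that chose Brd2.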

How the results depend on the processing

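The sign of Brd2 in late 2-cell embryos held in every alternative run: -3.02 to -2.71 with an embryo left out and -1.72 with the GC and length trend removed. Brd3 there ran from -1.95 to -1.08 with an embryo left out. Brdt ran from 0.72 to 0.90 with an embryo left out, was 0.47 in limma on log2(TPM + 1) and 1.07 with the GC and length trend removed. The cause of the moves was not tested.

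In zygotes limma called Brd3 in FPKM, TPM and log2(FPKM + 0.1), at -0.78, -0.80 and -0.81, and gave Brdt -0.0166, -0.0273 and -0.0166 in the same order. With an embryo left out Brd2 was 0.28 to 0.48, Brd3 -0.45 to -0.29 and Brdt 0.05 to 0.14. For the WT stage change Brd2 was 2.22 in log2(FPKM + 1), 2.26 in log2(FPKM + 0.1) and 0.98 with the GC and length trend removed, and 1.60 to 1.98 with an embryo left out. Brd3 was 0.27, 0.16 and 0.28 in FPKM, TPM and log2(FPKM + 0.1), all past no threshold, and 0.39 to 1.19 with an embryo left out, while Brdt stayed between -1.03 and -0.75. For the R442Q stage change Brd2 was -0.79 and -0.83 in log2(FPKM + 1) and log2(FPKM + 0.1) and -1.55 to -1.32 with an embryo left out. Brd3 there was -0.87, -1.24 and -0.98 in FPKM, TPM and log2(FPKM + 0.1), each past the threshold, 0.28 with the GC and length trend removed and -0.60 to -0.07 with an embryo left out. Brdt there was -0.44 in TPM, 0.25 with the GC and length trend removed and -0.26 to -0.01 with an embryo left out. In blastocysts Brd2 was -0.0453 in TPM and -0.25 to 0.15 with an embryo left out, Brd3 -0.48 to 0.0149. The mean log2(FPKM + 1) of Brdt differed by 0.15 to 0.68 with an embryo left out, and 8 of these 14 fits tested it (limma adjusted p 0.77 to 0.95). The implied length in zygotes, as a log2 difference, was -0.15 to 0.0022 for Brd2 and -0.019 to 0.00061 for Brdt with an embryo left out.

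Counts of genes called in zygotes were 1643 (783 higher, 860 lower), 270 in the model of 4 groups (197 higher, 73 lower), 411 higher and 1231 lower in limma on FPKM, 399 and 1289 on TPM, 400 and 1189 with a pseudocount of 0.1, 701 and 1021 with the GC and length trend removed, and 1125 to 1718 with an embryo left out. In late 2-cell embryos they were 580 (170 higher, 410 lower), 889 without a filter, 1664 in DESeq2 (736 and 928), 885 in TPM (147 and 738), 2507 in the model of 4 groups, 105 with the GC and length trend removed (61 and 44), 264 and 388 in limma on FPKM, and 142 to 891 with an embryo left out. For the stage changes they were 9920 in WT and 10547 in R442Q embryos, 9306 to 9946 and 10095 to 10536 with an embryo left out, and 7929 to 10457 and 7731 to 12022 over the other alternatives. In blastocysts 1 gene was called, 0 without a filter, 5 with TMM scaling and 0 to 30 with an embryo left out, 30 without WT replicate 7. Limma gave 1246 genes at an unadjusted p under 0.05 without a filter. The median of all genes moved from 0.07 to -0.20 in late 2-cell embryos in TPM, from 0.01 to -0.11 in zygotes in FPKM, and from 0.22 to -0.24 for the R442Q stage change in TPM.

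By the numbers in the sample titles, same-numbered embryos did not pair (correlations of deviations from -0.17 to 0.21), and no comparison had every embryo closest to its own number. With the replicate block 49 genes were called in late 2-cell embryos, 1205 in zygotes and 0 in blastocysts (890 at an unadjusted p under 0.05), the log2 difference of Brd2 in late 2-cell embryos was -2.92, and none of Zmynd8, Smarca4, Brd8, Supt5 and Aff1 passed. The descriptions number zygotes and late 2-cell embryos differently, with correlations of -0.14 to 0.056. A block on them, added after the data were seen and over fewer embryos (3 to 5 pairs), called 983 genes in zygotes and 0 in late 2-cell embryos (2154 at an unadjusted p under 0.05). Brd3 in the WT stage change was then 0.88, past no threshold. None of the same 5 late 2-cell genes passed, and Larp7, Trim28 and Cecr2 were lost in zygotes (adjusted p = 0.079, 0.062 and 0.12; by title Cecr2 alone, 0.095). Other bromodomain genes had 9 rises and 10 falls in the R442Q stage change (10 and 10 by title), and in late 2-cell embryos Brd2 was -3.21 and Brd3 -2.36. The depth of the blastocyst libraries is unknown.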
